A study of Mus musculus with 6 samples.

Results

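Transcripts of 67 heat shock protein and chaperone genes were followed by RNA sequencing of tumor cells from the mammary glands of MMTV-PyVT mice. They were chosen by gene symbol alone from the 10995 rows of a table of read counts. The rule took the families Hsp, Dnaja to Dnajc, Cct and Bag together with Tcp1 and Chordc1, and left out 4 chaperones of the endoplasmic reticulum, Hspa5, Hsp90b1, Dnajb9 and Dnajc3. In MMTV-PyVT mice the mouse mammary tumor virus promoter drives the polyoma virus middle T oncogene in mammary epithelium, and the animals develop mammary carcinomas. All libraries came from this transgenic line on the FVB/NJ strain. They fell into 3 libraries labelled Nr4a1-/- (KO) and 3 labelled wild type (WT), from mice described as age matched. Both groups therefore carried the oncogene and differed by label in Nr4a1, which encodes an orphan nuclear receptor transcribed as an immediate early gene. Whether each library stands for its own animal is left unsaid by the labels. The p-values therefore speak only of the spread among these 6 libraries, part of which may be technical. The sources used here give neither the age nor the deleted stretch of Nr4a1.

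Chaperones bind proteins that are not yet folded or have lost their fold. HSP70 proteins hold short unfolded stretches in cycles of ATP hydrolysis, which J proteins (DNAJ) start and which exchange factors of the HSP110 and BAG families end. HSP90 takes over partly folded clients such as kinases and steroid receptors, small heat shock proteins keep denatured proteins from aggregating, and the chaperonins HSP60 and TRiC fold proteins inside a closed chamber. Heat shock factor 1, encoded by Hsf1, raises the transcription of many of these genes when unfolded proteins accumulate, and tumor cells are known for depending on them. Not all 67 genes act in the cytosol. By background knowledge, at least 8 encode mitochondrial proteins and at least 8 encode proteins of the endoplasmic reticulum, so the term cytosolic would not cover the list.

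Levels are given as CPM, the count of a gene per 1000000 counts of its library, scaled between libraries with the trimmed mean of M values (TMM). Total counts per library ranged from 19569173 to 24188875. Nr4a1 itself had 25.1, 35.5 and 37.6 CPM in the KO libraries, against 34.5, 18.6 and 16.8 CPM in the WT libraries. The transcript was thus not lower in the libraries labelled KO (log2 fold change 0.49, SE 0.32, adjusted p = 0.594 in edgeR's quasi-likelihood test, and p = 0.2 in an exact two-sided permutation test whose smallest possible p is 0.1). Without WT replicate 1 its log2 fold change was 0.88, and without WT replicate 3 it was 0.31. KO and WT below mean the label only. WT replicate 1 stood apart from the other 5 libraries on the first principal component, which held 60.1% of the variance, at 51.3 against a range of -28.8 to 2.22. Summed markers of cell types were apart between the groups for luminal epithelium, macrophages and adipocytes and overlapped for fibroblasts and basal cells. In edgeR 0 markers were called, but in DESeq2 the luminal marker Krt7 was called, with an adjusted p of 0.0053. The 9 luminal epithelial markers summed to 3275 to 4310 CPM in KO and 5242 to 5393 CPM in WT. The 9 macrophage markers summed to 1150 to 1313 CPM in KO and 815 to 944 CPM in WT, and the 6 listed fibroblast markers to 3221 to 5751 CPM in KO and 1450 to 3797 CPM in WT. In such bulk samples, fewer cells of a type and less RNA per cell cannot be told apart, and the part of cell makeup in the values below was not tested. No listed marker had a count of 0, and T cell and endothelial markers were not analysed here. The 7 basal and myoepithelial markers summed to 2050 to 2446 CPM in KO and 1111 to 2857 CPM in WT, and the 2 listed of 5 adipocyte markers to 53.4 to 134 CPM in KO and 11.6 to 21.5 CPM in WT. Acta1, the single listed skeletal muscle marker, ranged from 17.97 to 113 CPM in KO and from 7.22 to 41.2 CPM in WT.

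As a group the chaperone transcripts lay close together in KO and WT. None of the 67 passed the adjusted threshold of 0.05 in edgeR's quasi-likelihood test with Benjamini-Hochberg adjustment over all genes, and the smallest adjusted p among them was 0.574. The background was 0%, with 0 of 10995 genes called. In limma-voom the counts were again 0 of 67 and 0% of all genes. DESeq2 called 0 of the 67 and 103 genes in all, a background of 0.938%, and its smallest adjusted p for a chaperone was 0.118. At an unadjusted p under 0.05 in edgeR, 4 of the 67 (5.97%) stood out, against 7.88% of all genes, and limma-voom also gave 4, against 7.85% of all genes. All 4 were higher in KO, where the background for that direction was 3.7%, and 0 were lower, where it was 4.17%. DESeq2 gave 7 at this unadjusted threshold (10.4%), near its background of 10.7%. The 3 KO and 3 WT values did not overlap for 11 of the 67 (16.4%), against 17.4% of all genes. Of these, 10 were higher in KO (14.9%, background 8.39%) and 1 was lower in KO (1.49%, background 9.05%).

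The sizes of the differences were small. The log2 fold change, KO over WT, was above 0 for 44 of the 67 (65.7%), against 49.4% of all genes, and for 48 with library size alone as the scaling. Its median was 0.05, and -0.0024 over all genes, and it lay within 0.2 of 0 for 48 members and beyond 0.5 for 5. Without WT replicate 1 the median was 0.03, and without WT replicate 3 it was 0.08. Summed over the 67 genes, the level was 12365, 12026 and 12030 CPM in KO and 12287, 11964 and 12040 CPM in WT. The chaperones thus took 1.20% to 1.24% of the scaled counts over the 6 libraries. They also varied less between libraries than most genes did: the ratio of the highest to the lowest library had a median of 1.24 over the members and 1.35 over all genes. It was above 2 for 7 members (10.4%) and for 18.1% of all genes. The members' median level was higher, at 79.4 against 41.8 CPM, and its part in this difference was not tested.

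**Figure D1:**
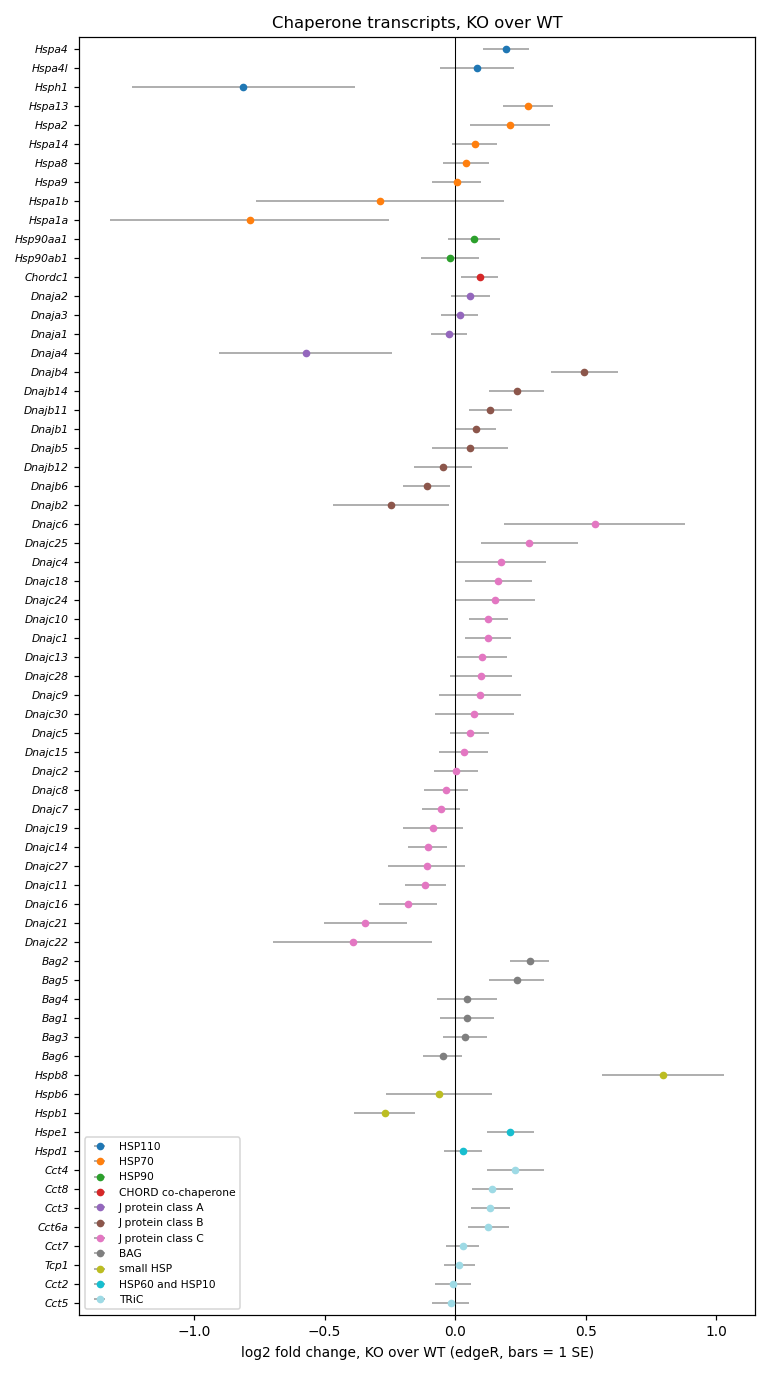
Log2 fold change, KO over WT, of each of the 67 chaperone transcripts (edgeR, 3 libraries a group). Points are coloured by role and bars are 1 SE. Most points lie within 0.2 of 0, Hspb8 lies farthest to the right at 0.80, and Hsph1 lies farthest to the left at -0.81.

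Genes were compared with each other per length, as CPM per kilobase of merged exon in GENCODE M21 (build GRCm38). On this scale Hsp90ab1, the constitutive HSP90, stood first with 816 ± 48.3 in KO and 828 ± 13.6 in WT (SD, n = 3 each). Hspb1, a small heat shock protein known as HSP25 in the mouse, followed with 263 ± 17.5 in KO and 317 ± 41.9 in WT. Next came Hspa8, the constitutive cytosolic HSP70, with 255 ± 7.24 in KO and 248 ± 3.67 in WT, and Hsp90aa1, the stress-responsive HSP90, with 230 ± 8.39 in KO and 219 ± 17.5 in WT. Hspb1 and Hspa8 are neighbours whose order the spread between libraries does not settle, since Hspa8 was the higher in KO replicate 3 alone. Hsp90aa1 was below both in each library. The levels of Hspb1, Hspa8 and Hsp90aa1 are also uncertain because 58.4%, 61.2% and 62.9% of their transcripts' 31-base words occur in other genes. The chaperonin subunit Cct2 came after them with 139 ± 4.60 in KO and 140 ± 1.65 in WT CPM per kilobase. At the low end was Dnajc6, encoding auxilin, which uncoats clathrin vesicles, with 1.25 ± 0.196 in KO and 0.865 ± 0.410 in WT. The stress-inducible Hspa1a was near the bottom too, with 3.07 ± 1.32 in KO and 5.29 ± 3.59 in WT CPM per kilobase. Its level is uncertain as well, since 70.1% of its transcript's 31-base words occur in other genes, chiefly in Hspa1b. Hspa1b, the other gene for the inducible HSP70, had 28.3 ± 14.5 in KO and 34.6 ± 17.6 in WT.

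**Figure D2:**
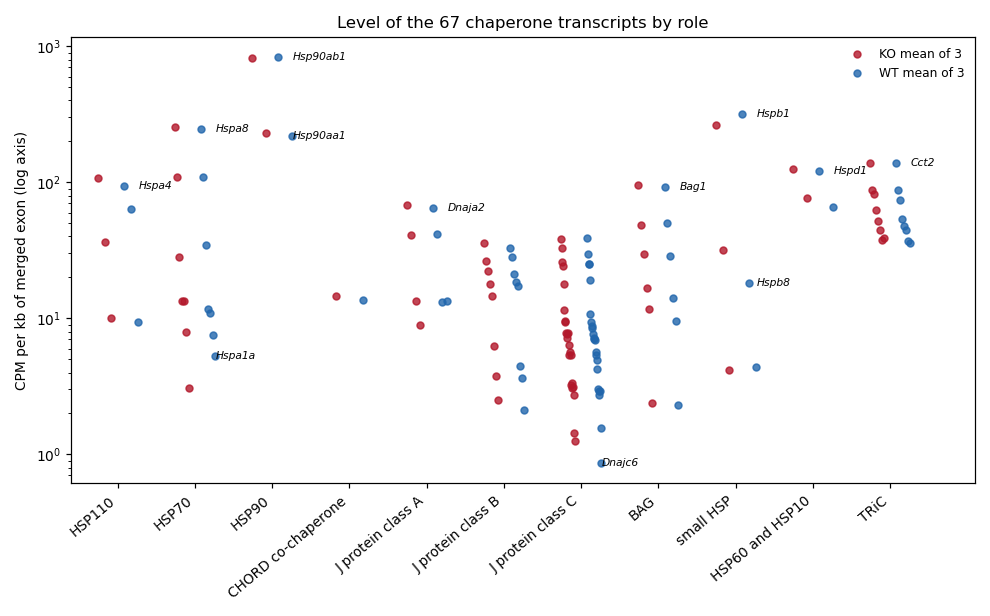
Mean level of the 67 transcripts by role, in CPM per kilobase of merged exon on a log axis, with the mean of 3 KO libraries left of the mean of 3 WT libraries. Hsp90ab1 stands highest in both groups at 816 and 828, and the J proteins of class C reach lowest.

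Among the HSP70 and HSP90 proteins that work in unstressed cells, the groups were nearly level. Hspa8 had 1097, 1066 and 1129 CPM in KO, against 1082, 1051 and 1067 CPM in WT (log2 fold change 0.04, SE 0.09). Hsp90ab1 had 2609, 2408 and 2327 CPM in KO, against 2511, 2436 and 2502 CPM in WT (log2 fold change -0.02, SE 0.11), and its sign turned with library-size scaling and without KO replicate 3. Groups overlapped for both genes. Hspa9, the mitochondrial HSP70 mortalin, had a log2 fold change of 0.01 (SE 0.09) and Hspa14, a ribosome-associated HSP70, 0.07 (SE 0.09) and 0.02 without WT replicate 1, both with overlapping groups. Hspa4, an HSP110 exchange factor for HSP70, was the exception in overlap. It had 609, 579 and 588 CPM in KO, against 476, 547 and 528 CPM in WT. Each KO library exceeded each WT library, WT replicate 1 being the lowest (log2 fold change 0.20, SE 0.09, edgeR adjusted p = 0.574).

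Hspa13 (chromosome 16, 75745431 to 75767104), an HSP70-like protein of microsomes, was the HSP70 with the smallest p. It had 91.2, 88.3 and 94.1 CPM in KO, against 65.8, 79.9 and 79.9 CPM in WT. The groups did not overlap, and the lowest value was that of WT replicate 1. The log2 fold change was 0.28 (SE 0.09, unadjusted p = 0.0246, adjusted p = 0.574 in edgeR). Hspa2, known for its role in male germ cells and named here after its values were seen, ranged from 28.1 to 40.1 CPM in KO and from 28.4 to 32.2 CPM in WT.

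The stress-inducible genes Hspa1a, Hsph1 and Hspa1b were, with Hspb8, the members with the widest ratio of highest to lowest library, at 4.16, 3.56, 2.90 and 2.93. Hsph1 (chromosome 5, 149614287 to 149636376) encodes HSP105, an HSP110 induced by heat. It had 255, 223 and 315 CPM in KO, against 793, 303 and 294 CPM in WT. WT replicate 1 was far above the other 5 libraries, at 2.66 times the geometric mean of the other WT libraries, while WT replicates 2 and 3 lay inside the KO range. The log2 fold change was -0.81 (SE 0.43, adjusted p = 0.574 in edgeR), and -0.18 without WT replicate 1.

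Hspa1a (chromosome 17, 34969190 to 34972156) and Hspa1b (chromosome 17, 34956436 to 34959238) are neighbouring genes for the heat-inducible HSP70. Hspa1a had 6.73, 7.002 and 13.6 CPM in KO, against 28.0, 9.45 and 9.65 CPM in WT. Hspa1b had 59.1, 52.9 and 126 CPM in KO, against 153, 74.9 and 62.3 CPM in WT. In both genes WT replicate 1 was highest and KO replicate 3 came next, so the groups overlapped. For Hspa1a the log2 fold change was -0.79 (SE 0.53, adjusted p = 0.6005 in edgeR) -0.07 without WT replicate 1 and -1.19 without KO replicate 3. For Hspa1b it was -0.29 (SE 0.48, adjusted p = 0.817), and with 1 library left out it ranged from -0.79 without KO replicate 3 to 0.21 without WT replicate 1. Reads of the pair cannot be assigned with certainty, since 70.1% of the 31-base words of the Hspa1a transcript and 68.1% of those of Hspa1b occur in transcripts of other genes, chiefly of each other. Their 250 upstream bases differ at only 3 positions (98.8% identical). Set against Hspa8, which shares the library, the summed counts of the pair were 0.0600, 0.0561 and 0.124 in KO and 0.168, 0.0803 and 0.0674 in WT.

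Dnaja4 (chromosome 9, 54698873 to 54716315), a cytosolic J protein of class A, followed the pattern of Hsph1. It had 32.0, 31.6 and 33.05 CPM in KO, against 75.5, 35.1 and 33.13 CPM in WT. WT replicate 1 was 2.21 times the geometric mean of the other WT libraries, and the groups were apart by the narrow gap between KO replicate 3 and WT replicate 3. It was the single member lower in KO without overlap (log2 fold change -0.57, SE 0.33, adjusted p = 0.581 in edgeR, and -0.08 without WT replicate 1). Of its exon bases, 44.1% overlap Wdr61 on the other strand, and the sources used here do not say whether counting used the strand. Wdr61, a scaffold of the PAF1 complex, had 50.3, 56.4 and 56.8 CPM in KO and 43.3, 56.0 and 50.6 CPM in WT, so it was lowest where Dnaja4 was highest.

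Among other genes that heat shock factor 1 is known to drive, Dnajb1, Dnaja1 and Hsp90aa1 did not share the high value of WT replicate 1. Dnajb1, the J protein HSP40, had 72.0, 68.2 and 73.8 CPM in KO, against 62.4, 70.5 and 69.6 CPM in WT. Dnaja1, its class A counterpart, had 353, 347 and 369 CPM in KO, against 367, 361 and 357 CPM in WT. Hsp90aa1 had 941, 893 and 878 CPM in KO, against 781, 892 and 907 CPM in WT. In Dnajb1 and Hsp90aa1 the lowest library was WT replicate 1, and in all 3 genes the groups overlapped. Their log2 fold changes were 0.08 (SE 0.08), -0.02 (SE 0.07) and 0.07 (SE 0.10), and that of Dnaja1 was above 0 with library-size scaling. Without WT replicate 1, that of Dnajb1 was 0.03 and that of Hsp90aa1 was 0.0070. Chordc1, a zinc-binding HSP90 co-chaperone, ranged from 102 to 115 CPM in KO and from 97.9 to 104 CPM in WT. Hspa4l, an HSP110 also called APG-1, had 111, 108 and 136 CPM in KO, against 129, 109 and 96.7 CPM in WT. As in Hspa1a and Hspa1b, WT replicate 1 and KO replicate 3 were the highest libraries, by less than in those genes. They stood at 1.25 and 1.24 times the geometric mean of the others of their groups. The sign of Hspa4l turned without KO replicate 3 or WT replicate 3. Over the 14 heat-inducible members, 9 were above 0 (10 with library size alone), 0 were called, and the median log2 fold change was 0.06, against 0.03 without WT replicate 1.

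Immediate early genes, which respond to handling and dissociation of cells, were read beside these genes. The 10 listed ones summed to 985 to 1065 CPM in KO and 1130 to 1256 CPM in WT, and 8 of them had a log2 fold change below 0. The median was -0.37, and without WT replicate 1 it was -0.28, with 1 of the 10 above 0. Groups did not overlap for 4 of the 10, all lower in KO, against 9.05% of all genes in that direction. In edgeR 0 of the 10 were called. Dusp1, a phosphatase of this class, had 40.9, 45.1 and 42.6 CPM in KO, against 165, 50.3 and 33.7 CPM in WT. Fos, a subunit of AP-1, had 34.4, 26.9 and 35.0 CPM in KO, against 77.6, 44.5 and 35.9 CPM in WT. Both were highest in WT replicate 1, the library in which Hsph1, Hspa1a, Hspa1b and Dnaja4 were highest. Over the list, WT replicate 1 was highest for 5 of the 10 genes and lowest for 2. Among those lowest there was Jun, a partner of Fos in AP-1, with 133, 125 and 139 CPM in KO, against 109, 144 and 143 CPM in WT. Their part in those values was not tested.

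**Figure D3:**
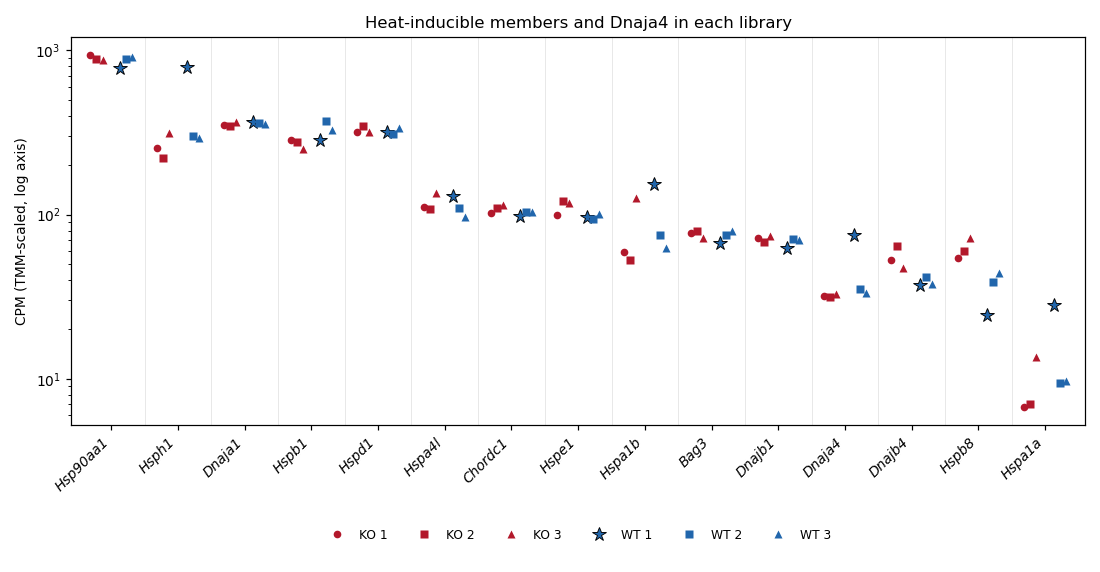
Level of the 14 heat-inducible members and Dnaja4 in each library, in TMM-scaled CPM on a log axis, with the 3 KO libraries left of the 3 WT libraries and WT replicate 1 drawn as a star. The star stands far above the rest for Hsph1 at 793 CPM and for Dnaja4 at 75.5 CPM, and not for Dnajb1 or Hsp90aa1.

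Heat shock factor 1 binds as a trimer to inverted repeats of a 5-base unit, so the letters GAANNTTC and TTCNNGAA (2 units) and, for 3 units, GAANNTTC followed by NNGAA were searched on both strands of the 250 bases upstream of RefSeq gene starts (GRCm38.p6). Of the 67 members, 54 had a RefSeq promoter. A 2-unit match was present in 15 of 54 (27.8%), against 11.8% of the 8506 genes of the table with a promoter, 14.5% of all 27025 such genes and 12.8% of all 32851 promoters. The 3-unit letters, which contain both shorter ones, were found in 3 of 54 (5.56%), namely Dnajb6, Hspd1 and Hspe1, against 0.458% of the table's genes, 0.514% of all genes and 0.466% of all promoters. A match describes letters in this window and is not a measured binding site. Windows of 30 bases are shown for the members with the high value in WT replicate 1, then for Dnajb4 and Hspb1, whose levels are given further on, and last for genes with log2 fold changes near 0 and for the 3-unit matches. Capitals mark the matched letters, and each window is written 5′ to 3′ on the gene's strand.
Hsph1, chr5:149636351-149636380, minus strand: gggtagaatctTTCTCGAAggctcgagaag
Hspa1a, chr17:34972242-34972271, minus strand: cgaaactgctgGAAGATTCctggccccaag
Hspa1b, chr17:34959324-34959353, minus strand: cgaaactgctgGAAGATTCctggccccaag
Dnaja4, chr9:54699458-54699487, plus strand: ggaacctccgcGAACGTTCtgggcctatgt
Dnaja4, chr9:54699496-54699525, plus strand: gcctcctggcgGAACCTTCcgccggcgccg
Dnajb4, chr3:152193841-152193870, minus strand: ttcgttcgctgTTCTAGAAagtacagagac
Hspb1, chr5:135887791-135887820, plus strand: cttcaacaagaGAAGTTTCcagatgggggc
Hspb1, chr5:135887811-135887840, plus strand: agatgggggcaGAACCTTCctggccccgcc
Dnaja1, chr4:40722333-40722362, plus strand: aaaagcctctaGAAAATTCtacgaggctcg
Cct2, chr10:117063399-117063428, minus strand: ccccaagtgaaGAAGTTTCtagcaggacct
Cct5, chr15:31601862-31601891, minus strand: acagcggccgaTTCCAGAAgctactctgcg
Dnajb6, chr5:29735843-29735872, plus strand: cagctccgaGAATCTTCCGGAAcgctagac
Hspe1, chr1:55088053-55088082, plus strand: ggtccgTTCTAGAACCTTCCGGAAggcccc
The windows of Hspa1a and Hspa1b are the same 30 bases. The last window lies upstream of the Hspe1 start and inside the annotated Hspd1 gene, whose RefSeq starts lie on either side of it on the other strand. Read from the minus strand, it is the match counted for the inner of those Hspd1 starts. The windows of Dnaja4, Dnajb4, Dnaja1, Cct2 and Dnajb6 also lie inside their own annotated genes, as does most of the Hsph1 window. For Dnajb4 the match stood before an inner RefSeq start, and the outer start had 0 matches. Matched letters stood before genes that were high in WT replicate 1 and before genes that were not, such as Dnaja1 and Cct2. Dnajb2, which was also highest in WT replicate 1 and is given further on, had 0 matches. The heat-inducible members Dnajb1, Bag3, Chordc1, Hspb8 and Hspa4l had 0 matches as well.

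The 3 small heat shock proteins did not share a direction. Hspb8 (chromosome 5, 116408491 to 116422864), which works with BAG3 in the autophagic clearance of misfolded proteins and is abundant in muscle, had 54.6, 60.4 and 71.6 CPM in KO, against 24.4, 39.1 and 43.8 CPM in WT. The lowest KO library exceeded the highest WT library, and the lowest of all was WT replicate 1. The mean was 62.2 ± 8.63 CPM in KO and 35.8 ± 10.1 CPM in WT (SD, n = 3 each). The log2 fold change was 0.80 (SE 0.23, unadjusted p = 0.0144, adjusted p = 0.574 in edgeR and 0.118 in DESeq2), and 0.59 without WT replicate 1. Hspb1 (chromosome 5, 135887919 to 135889563), the counterpart of human HSP27, had 284, 278 and 251 CPM in KO, against 284, 370 and 325 CPM in WT. WT replicate 1 lay inside the KO range, so the groups overlapped (log2 fold change -0.27, SE 0.12, adjusted p = 0.574 in edgeR, -0.36 without WT replicate 1 and -0.17 without WT replicate 2). For Hspb1, 58.4% of the transcript's 31-base words occur in other genes, mostly in the pseudogene Hsp25-ps1. Hspb6, a small heat shock protein of muscle named here after its values were seen, ranged from 9.32 to 9.895 CPM in KO and from 7.90 to 12.9 CPM in WT.

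Within each library, Hspb8 counts over Hspb1 counts came to 0.192, 0.217 and 0.286 in KO and 0.0860, 0.106 and 0.135 in WT. The lowest KO ratio was above the highest WT ratio, as was already so for the level of Hspb8 alone. This ratio was looked at after the levels were known and was not tested. Summed markers of pericytes and smooth muscle, 1 of which (Acta2) also stands in the basal list, were 917 to 2021 CPM in KO and 336 to 1123 CPM in WT over the 8 listed of 10, with WT replicate 1 lowest. Of these 8, 7 had a log2 fold change above 0. All 9 luminal markers had a log2 fold change below 0, and 8 without WT replicate 1. The part of these cell types in the Hspb8 and Hspb1 values was not tested. Bag3, the partner of Hspb8, did not differ in the same way: it had 77.0, 79.0 and 72.3 CPM in KO, against 67.6, 74.8 and 79.8 CPM in WT.

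J proteins, which hand clients to HSP70, were the most numerous members, with 4 of class A, 8 of class B and 23 of class C. Dnajb4 (chromosome 3, 152178511 to 152210302), a cytosolic class B protein related to Dnajb1, had the smallest p of all members. It had 52.8, 64.6 and 47.4 CPM in KO, against 37.4, 41.7 and 37.9 CPM in WT. All KO libraries were above all WT libraries, and KO replicate 2 was highest. The log2 fold change was 0.49 (SE 0.13, unadjusted p = 0.00810, adjusted p = 0.574 in edgeR and 0.118 in DESeq2), and 0.47 without WT replicate 1. Over the 8 class B proteins, 5 were above 0 with a median of 0.07, and over the 4 of class A, 2 were above 0 with a median of -0.0029 (3 above 0 with library size alone). With 1 library left out the class B median ranged from 0.02 without WT replicate 1 to 0.12 without WT replicate 3, and that of class A from -0.02 to 0.03. Dnajb2, a J protein that binds ubiquitinated clients and is named here after its values were seen, had 58.4, 56.4 and 71.3 CPM in KO, against 98.5, 63.9 and 58.2 CPM in WT, again highest in WT replicate 1. Its log2 fold change of -0.25 (SE 0.22) was 0.02 without that library and -0.38 without WT replicate 3. Of the remaining class B and class A proteins, Dnajb14 in the endoplasmic reticulum membrane had a log2 fold change of 0.24 (SE 0.11) and Dnajb6, which keeps polyglutamine proteins from aggregating, -0.11 (SE 0.09), which was -0.04 without WT replicate 1 and -0.17 without WT replicate 3. Both were named after their values were seen.

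The 23 class C proteins share only the J domain and work in places as different as clathrin vesicles, ribosomes and mitochondria. The groups did not overlap for 0 of these, against 17.4% of all genes. The log2 fold change was above 0 for 14 of the 23, and the median was 0.06. Without WT replicate 2 the median was 0.0018, with 12 above 0. Their summed level was 1244, 1252 and 1222 CPM in KO and 1221, 1229 and 1236 CPM in WT. Dnajc6 had 8.75, 6.67 and 6.81 CPM in KO, against 3.44, 7.89 and 4.0 CPM in WT. Its groups overlapped because WT replicate 2 was above the lower KO libraries (log2 fold change 0.53, SE 0.35, adjusted p = 0.594 in edgeR, 0.32 without WT replicate 1 and 0.99 without WT replicate 2). Dnajc22 had 6.12, 5.53 and 6.31 CPM in KO, against 11.5, 6.93 and 5.18 CPM in WT. WT replicate 1 was highest, and without it the log2 fold change of -0.39 (SE 0.31) was -0.02, while it was -0.61 without WT replicate 3. Dnajc21, a ribosome biogenesis factor named after its values were seen, had the smallest p of the class at 0.0723 unadjusted in edgeR, with 23.2, 23.0 and 31.5 CPM in KO and 36.7, 32.2 and 29.7 CPM in WT.

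Bag proteins release clients from HSP70. Of the 6, 5 had a log2 fold change above 0, and 3 had without WT replicate 1. Bag2 (chromosome 1, 33745484 to 33757795), an inhibitor of the ubiquitin ligase CHIP, had 33.9, 37.5 and 35.9 CPM in KO, against 29.3, 29.3 and 29.5 CPM in WT. The groups were apart, and here WT replicate 1 did not differ from the other WT libraries (log2 fold change 0.29, SE 0.08, unadjusted p = 0.00855, adjusted p = 0.574 in edgeR, and 0.28 without WT replicate 1). In counts, this was 825, 894 and 712 in KO and 604, 638 and 626 in WT. Bag5, which acts on HSP70 and parkin, had 42.4, 38.8 and 44.9 CPM in KO, against 37.2, 38.3 and 31.6 CPM in WT (log2 fold change 0.24, SE 0.10, no overlap). Bag1, Bag3, Bag4 and Bag6 had overlapping groups and log2 fold changes of 0.05 (SE 0.10), 0.04 (SE 0.08), 0.05 (SE 0.11) and -0.05 (SE 0.07). Those of Bag1, Bag3 and Bag4 turned sign when single libraries were left out.

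The TRiC chaperonin folds actin and tubulin in a ring of 8 different subunits, all of which were in the table. Cct4 had 264, 265 and 263 CPM in KO, against 191, 244 and 241 CPM in WT. Cct8 had 254, 262 and 246 CPM in KO, against 212, 241 and 237 CPM in WT, and Cct3 had 247, 254 and 246 CPM in KO, against 209, 234 and 236 CPM in WT. With Cct6a, at 186 to 189 CPM in KO and 156 to 180 CPM in WT, these 4 had groups that did not overlap. All 4 of these 8 subunits were higher in KO. Of all genes in the table, 17.4% had groups that did not overlap, and 8.39% were apart with KO higher. WT replicate 1 was lowest in each of the 4 subunits. Their log2 fold changes were 0.23 (SE 0.11) for Cct4, 0.14 (SE 0.08) for Cct8, 0.13 (SE 0.08) for Cct3 and 0.13 (SE 0.08) for Cct6a, with adjusted p of 0.574 to 0.585 in edgeR. The other 4 were level: Cct7 at 0.03 (SE 0.06), Tcp1 at 0.02 (SE 0.06), Cct2 at -0.01 (SE 0.07) and Cct5 at -0.02 (SE 0.07). With library size alone as the scaling, all 8 subunits were above 0, Cct2 and Cct5 included.

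Summed over the 8 subunits, the level was 2055, 2052 and 1995 CPM in KO and 1830, 1976 and 1986 CPM in WT, so that the groups did not overlap by a gap between KO replicate 3 and WT replicate 3. The median log2 fold change of TRiC was 0.08, and 0.04 without WT replicate 1. Without that library, Cct4 was at 0.13, Cct8 at 0.09, Cct3 at 0.08 and Cct6a at 0.06. WT replicate 1 was the lowest library for 6 of the 8 subunits. Of the 9 prefoldin subunits and TRiC helpers, which deliver or regulate its clients, 7 were above 0 (9 with library size alone). Their median was 0.06, and 0 were called in edgeR.

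**Figure D4:**
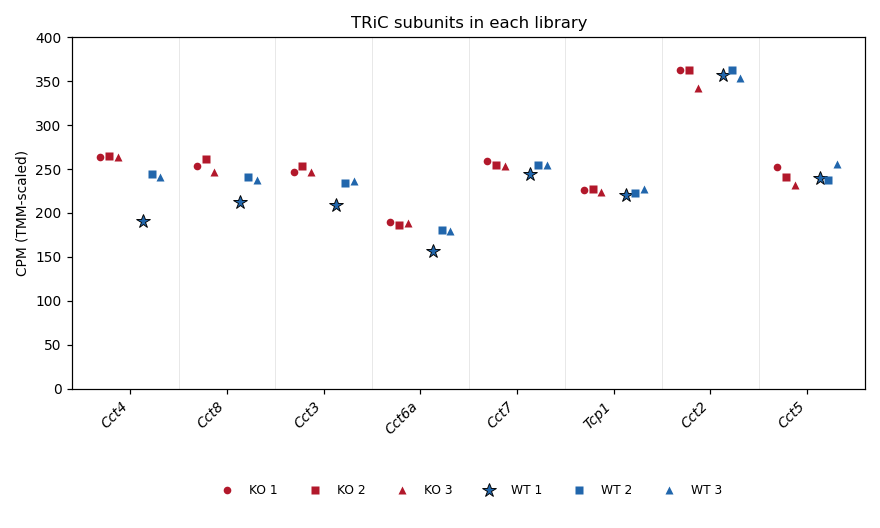
Level of the 8 TRiC subunits in each library in TMM-scaled CPM, ordered by log2 fold change, with the 3 KO libraries left of the 3 WT libraries and WT replicate 1 drawn as a star. For Cct4, Cct8, Cct3 and Cct6a the star lies below all other libraries, and for Cct2 and Cct5 the groups overlap.

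In mitochondria, HSP60 and its lid HSP10 are encoded by the pair Hspd1 and Hspe1. Hspd1 had 320, 345 and 320 CPM in KO, against 321, 310 and 335 CPM in WT (log2 fold change 0.03, SE 0.07). Hspe1 had 100, 122 and 117 CPM in KO, against 97.3, 94.5 and 101 CPM in WT (log2 fold change 0.21, SE 0.09, adjusted p = 0.574 in edgeR). For Hspe1, KO replicate 1 lay among the WT libraries and the other KO libraries above them. Of the 8 members listed as mitochondrial, which may not be all, 6 were above 0 with a median of 0.02. Without WT replicate 2 the median was 0.0025, and without KO replicate 1 or KO replicate 2 only 4 were above 0. Among 10 partners of mitochondrial import and folding, 7 were above 0 with a median of 0.07, and of 0.03 without WT replicate 1.

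For the 8 members listed for the endoplasmic reticulum, which may not be all, 5 were above 0 with a median of 0.13. That median was 0.07 without WT replicate 1 and 0.08 without KO replicate 2. Their summed level was 715, 710 and 678 CPM in KO and 653, 676 and 673 CPM in WT. These sums were apart only by the narrow gap between KO replicate 3, at 678.4 CPM, and WT replicate 2, at 676.1 CPM. The 12 other chaperones of this compartment, which include the 4 left out by name, were all above 0, with log2 fold changes of 0.10 to 0.32, a median of 0.20 and 0 called in edgeR. In 11 of these 12, WT replicate 1 was the lowest library, and without it 11 were above 0 with a median of 0.11. Without KO replicate 2 the median was 0.12. Hspa5, the HSP70 of the endoplasmic reticulum known as BiP, had 793, 933 and 816 CPM in KO, against 718, 792 and 771 CPM in WT (log2 fold change 0.16, SE 0.10, and 0.08 without KO replicate 2).

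Hsf1, the regulator, had 44.5, 48.9 and 48.1 CPM in KO, against 54.1, 53.3 and 53.4 CPM in WT. The groups did not overlap (log2 fold change -0.18, SE 0.07, unadjusted p = 0.0348, adjusted p = 0.574 in edgeR). Hspbp1, an HSP70 exchange factor, had 39.4, 36.4 and 35.0 CPM in KO, against 50.6, 41.1 and 42.9 CPM in WT (log2 fold change -0.28, SE 0.10, and -0.19 without WT replicate 1). In a list of Hsf1, Hsf2, Hsbp1 and Hspbp1, 3 of the 4 were below 0. Among 5 exchange factors of HSP70 outside the rule, a list that holds Hspbp1 again, 2 were above 0. In edgeR 0 were called in either list. Of the 24 co-chaperones of HSP90, 0 were called in edgeR. Of them, 13 were above 0 (14 with library size alone), 11 were below and the median was 0.02. The sign of this median was not stable: with 1 library left out it ranged from -0.03 without KO replicate 3 to 0.04 without WT replicate 1, and it was -0.0077 without WT replicate 2. The widest was Fkbp5, a glucocorticoid-responsive immunophilin, with 28.5, 35.3 and 24.4 CPM in KO, against 13.2, 22.8 and 22.3 CPM in WT (log2 fold change 0.60, SE 0.25, and 0.38 without WT replicate 1). Cryab, a crystallin related to Hspb8, had 99.65, 159 and 108 CPM in KO, against 216, 142 and 140 CPM in WT (log2 fold change -0.44, SE 0.25, -0.21 without WT replicate 1 and -0.68 without KO replicate 2). WT replicate 1 was the lowest of the 6 libraries for Fkbp5 and the highest for Cryab.

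WT replicate 1 set the ends of the range for many members. It was the lowest of the 6 libraries for 28 of the 67 (41.8%), against 31.6% of all genes, and the highest for 16 (23.9%), against 32.2% of all genes. KO replicate 3, next below it for Hspa1a and Hspa1b, was highest for 13 members and lowest for 8. In single libraries, a member lay over 2-fold from the geometric mean of the others of its group in 4 cases in WT replicate 1 (5.97%, against 7.82% of all genes), in 1 case each in KO replicate 3 (1.49%, against 2.86%) and WT replicate 2 (1.49%, against 2.76%), and in 0 cases in the other libraries. Those of WT replicate 1 were Hspa1a, Hsph1, Hspa1b and Dnaja4.

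**Figure D5:**
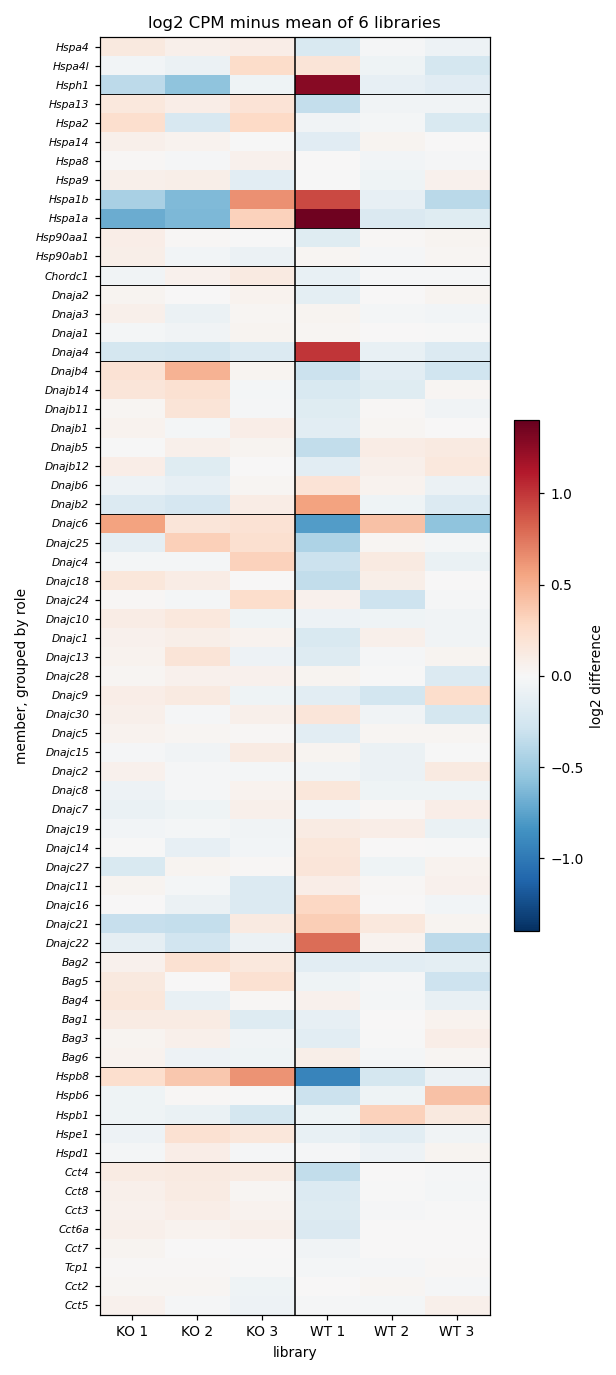
Log2 CPM of each member in each library minus its mean over the 6 libraries, grouped by role, with KO columns left of WT columns. The strongest colours are the high values of WT 1 for Hspa1a, Hsph1, Hspa1b and Dnaja4 and its low value for Hspb8.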

How the data were processed

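Messenger RNA of 6 libraries was measured by 150-base paired-end sequencing, per the labels' protocols. The authors deposited raw read counts per gene symbol, without normalization. GRCm38 (mm10), HISAT2, featureCounts and CASAVA 1.8 stand in the submitters' processing notes. The sources used here do not say how strand and reads with several alignments were handled. No listed gene had a highest count under 133, so low genes had already been removed, and 16 rows with a date in place of a symbol were kept unnamed.

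Counts were fitted with edgeR 4.0.16 in R 4.3.3 (filterByExpr, which removed 0 genes, TMM scaling, robust quasi-likelihood F test, group as the only term), with Benjamini-Hochberg adjustment at 0.05 over all 10995 rows. DESeq2 1.42.0, limma-voom (limma 3.58.1), other scalings, filters and thresholds, the replicate number as a term and leaving out each library were alternatives. The scripts were tested on simulated data. Gene lengths, overlaps and shared 31-base words came from GENCODE M21 (GRCm38), which matched all 67 members, and promoters from RefSeq (GRCm38.p6).

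The members and gene lists were chosen with earlier results of these data known. The naming rule took the heat-inducible, constitutive, TRiC and Bag lists, the 4 largest fold changes in each direction and the 4 smallest p.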

Additional observations from a re-analysis of the deposited data

How the results depend on the processing

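The edgeR count of called chaperones was 0 under every scaling, filter and left-out library run, at an adjusted p of 0.10, and in DESeq2 and limma-voom. It was 4 at an unadjusted p under 0.05. The count over all genes was 0, but 103 in DESeq2, 866 at an unadjusted p under 0.05, and 0 to 2 with 1 library left out (2 without WT replicate 2). Members whose groups did not overlap numbered 11, and 14 to 24 with 1 library left out, where 23.3% to 34.7% of all genes did not overlap, since fewer samples overlap less by construction. With 1 library left out, the median log2 fold change ranged from 0.03 to 0.08 over the members, from 0.03 to 0.08 over the heat-inducible list and from 0.04 to 0.10 over TRiC. In the fit with a replicate block, 0 members were called and the smallest adjusted p was 0.478, but samples with the same number did not deviate together (correlations of -0.11, 0.35 and -0.25), so the numbers were not taken as pairs.

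Of 466 comparisons of a named member with an alternative, 22 turned sign, in 11 members that were not called in any, and the cause was not tested. The 466 include a run without filterByExpr. It equals the main fit, since that filter removed 0 genes, so its comparisons could not turn sign. With library size alone, the log2 fold change was 0.016 for Cct2, 0.0069 for Cct5, 0.0015 for Dnaja1 and 0.0036 for Hsp90ab1, while the median of all genes was 0.02. In limma-voom that of Hspa9 was -0.00072. With 1 library left out, it ranged from -0.0034 to 0.14 for Bag1, -0.022 to 0.10 for Bag3, -0.027 to 0.11 for Bag4, -0.022 to 0.021 for Cct2, -0.049 to 0.021 for Cct5, -0.069 to 0.016 for Hsp90ab1, -0.79 to 0.21 for Hspa1b, -0.026 to 0.20 for Hspa4l, -0.032 to 0.076 for Hspa9 and -0.0073 to 0.064 for Hspd1.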

Other observations

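Ratios between related chaperones within a library gave values that need no scaling between libraries. Hsp90aa1 counts over Hsp90ab1 counts were 0.361, 0.371 and 0.377 in KO and 0.311, 0.366 and 0.362 in WT, with WT replicate 1 lowest. Hspd1 over Hspe1 was 3.20, 2.84 and 2.74 in KO and 3.30, 3.28 and 3.31 in WT, so that the mitochondrial chaperonin and its lid had the lower ratio in all 3 KO libraries. Hsph1 over Hspa4 was 0.419, 0.384 and 0.536 in KO and 1.67, 0.554 and 0.557 in WT. Each of these ratios was looked at after the levels were known and was not tested.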
